A study of Homo sapiens with 4 samples.

Results

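The ATP-binding cassette (ABC) transporter genes were followed in 4 RNA libraries of A549 cells, a line established from a human lung carcinoma. Members are the gene models whose symbol is ABC, a subfamily letter from A to G and a number, which gave 46 out of 42113 gene models. Of these, 29 were compared, selected on a mean over the 4 libraries of 30 normalized counts or more, a level that 12742 of all gene models reached. A lentivirus had given the cells a stable short hairpin RNA (shRNA), which was a negative control or targeted LIMA1, the gene of an actin-bundling protein. Cells of each kind were kept untreated or received 10 µM nutlin-3a, which frees the transcription factor p53 from its ligase MDM2. RNA was taken 24 h later. There were thus 4 groups with 1 library each: untreated control shRNA, untreated LIMA1 shRNA, nutlin-3a control shRNA and nutlin-3a LIMA1 shRNA. The sources used here do not say how many hairpins or clones each cell line stands for.

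ABC proteins use ATP to move substrates across membranes. They are built from nucleotide-binding and membrane-spanning domains. Subfamily A moves mainly lipids, B holds the drug pump P-glycoprotein and several mitochondrial carriers, C exports drugs and glutathione or glucuronide conjugates, D serves peroxisomes and lysosomes, and G includes sterol and drug exporters. The E and F proteins lack membrane-spanning domains and act on ribosomes. In lung epithelium the family is known for ABCA3, which loads surfactant lipid into lamellar bodies, and for drug and conjugate efflux.

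Values are called normalized fragment counts here. From their steps, most are fragments divided by 1 size factor per library, and they are not divided by gene length. Of the compared members, ABCB9 did not have whole fragments in every library. A difference is that of log2(normalized count + 1), followed in brackets by the exact 95% counting interval of the ratio. Genes are called higher from 1 upward and lower from -1 downward. With 1 library per group there is no replicate error, no test and no p-value, so each difference compares libraries. Intervals cover counting error only. In bulk RNA, fewer cells expressing a gene and less RNA per cell cannot be told apart. The libraries held 15.2 M to 16.7 M fragments. LIMA1 had 416 normalized counts in untreated and 866 in nutlin-3a control cells, against 68.3 and 133 in LIMA1 shRNA cells. CDKN1A, a p53 target, had 1066 and 1178 untreated and 34078 and 48106 with nutlin-3a. The keratin genes KRT8 and KRT18 were at 55419 to 82811. SFTPB, a surfactant gene, was listed at 0 in all 4 libraries, and NKX2-1, a lung lineage factor, had at most 1 fragment, while the epithelial adhesion gene EPCAM was at 229 and 111 in control cells and 82.1 and 31.1 in LIMA1 shRNA cells, and CLDN4 at 29.7 to 76.1. None of the 5 endothelial and 6 blood markers reached the level minimum, while 3 of 6 muscle and neuron markers (SNAP25, SYT1 and RBFOX3) did.

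Promoter windows are shown for the members on which the nutlin-3a results turn: ABCA1 and ABCA12, the members called higher in both cell lines, and ABCE1, the member with the lowest difference in control shRNA cells, which was added after its values were seen. Each is the 250 bases before a RefSeq transcription start on GRCh38.p14, on the gene's strand, which is another build than the hg19 of the files. Of the 46 members 35 matched the promoter table by symbol, 23 of them compared. ABCA12 has an entry for each of its 2 start sites. The windows lie at chr9:104928156-104928405 (minus strand) for ABCA1, chr2:215138627-215138876 (minus) and chr2:215032087-215032336 (minus) for ABCA12, and chr4:145098061-145098310 (plus) for ABCE1. Capitals mark matches on either strand to the p53 decamer and to a relaxed direct repeat of the sterol receptor LXR. They also mark the E-box CACGTG and the cAMP response element TGACGTCA. The p53 decamer is a half-site, and no full p53 element was searched for.
ABCA1: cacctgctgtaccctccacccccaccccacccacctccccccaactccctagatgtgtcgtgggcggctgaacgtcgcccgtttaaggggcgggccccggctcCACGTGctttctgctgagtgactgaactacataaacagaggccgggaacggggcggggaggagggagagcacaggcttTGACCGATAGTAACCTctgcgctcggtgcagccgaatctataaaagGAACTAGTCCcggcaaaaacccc
ABCA12, upstream start: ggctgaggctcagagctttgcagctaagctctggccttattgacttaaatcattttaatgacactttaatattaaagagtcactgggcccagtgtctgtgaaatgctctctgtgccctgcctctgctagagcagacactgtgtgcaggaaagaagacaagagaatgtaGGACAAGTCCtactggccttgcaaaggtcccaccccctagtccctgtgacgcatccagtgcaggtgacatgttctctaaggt
ABCA12, downstream start: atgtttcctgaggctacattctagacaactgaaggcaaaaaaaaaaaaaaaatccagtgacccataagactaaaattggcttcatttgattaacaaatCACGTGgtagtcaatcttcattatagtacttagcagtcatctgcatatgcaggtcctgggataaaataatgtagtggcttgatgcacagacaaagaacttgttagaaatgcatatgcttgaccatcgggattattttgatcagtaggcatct
ABCE1: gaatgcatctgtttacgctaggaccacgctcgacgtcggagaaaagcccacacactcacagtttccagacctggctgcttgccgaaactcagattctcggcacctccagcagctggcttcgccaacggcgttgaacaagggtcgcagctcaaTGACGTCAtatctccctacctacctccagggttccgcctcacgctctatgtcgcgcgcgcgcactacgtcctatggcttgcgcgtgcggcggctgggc

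In the ABCA1 window the p53 decamer match GAACTAGTCC spans bases -23 to -14 from the start site, the LXR repeat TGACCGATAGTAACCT, read on the other strand, -69 to -54, and the E-box -147 to -142. The upstream ABCA12 window has the p53 decamer match GGACAAGTCC at -82 to -73, and the downstream one has an E-box at -152 to -147. ABCE1 has the cAMP response element at -98 to -91. None of these matches overlap. Of all 35116 windows of this length, 5.57% hold a p53 decamer, 0.0797% the LXR repeat, 6.34% the E-box and 1.65% the cAMP response element. Among the 34 windows of the 23 compared members, 3 hold a p53 decamer, those of ABCA1, ABCA12 and ABCC5, and 8 hold an E-box. The core of the antioxidant response element, TGACNNNGC, through which NRF2 acts on conjugate exporters, is in 8 of the 34 windows and in 10.9% of all windows. Those windows belong to ABCA2, ABCA3, ABCB6, ABCB9, ABCC4, ABCC10, ABCD4 and ABCF1. The conjugate exporter genes ABCC1, ABCC2 and ABCC3 are not among them. Compared members outside the 23 had no window to search, so a gene not named here may lack a window rather than a match. Only the 250 bases before a start were searched. The motifs were chosen with the expression values in view, the LXR repeat after the ABCA1 window had been read. A match describes letters, not binding.

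The repertoire was dominated by the conjugate exporters of subfamily C. ABCC2 was the highest member in every library, at 8873 normalized counts in untreated control cells, 10689 in untreated LIMA1 shRNA cells, 12601 in control cells with nutlin-3a and 16152 in LIMA1 shRNA cells with nutlin-3a. It encodes MRP2, an apical exporter of glutathione and glucuronide conjugates. ABCC3, the basolateral MRP3, was at 6579, 8258, 10469 and 13588 in the same order. ABCC1, the multidrug resistance protein MRP1, was at 4674, 7374, 6033 and 9605. The whole subfamily held 56.2%, 61.0%, 62.3% and 67.0% of all ABC normalized counts. All 46 members together made up 0.255%, 0.295%, 0.332% and 0.398% of the library total. Per kilobase of transcript, the 29 compared members made up 0.144%, 0.167%, 0.175% and 0.209% of compared features with a length, and subfamily C 46.6%, 51.3%, 55.3% and 60.9% of those members. The untreated control library was the lowest and the nutlin-3a LIMA1 shRNA library the highest.

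Per kilobase of the longest GENCODE 29 coding transcript, the order of levels in untreated control cells began with ABCC2 (1528 normalized counts per kb), ABCC3 (1151), the ribosome-associated ABCF2 (763), ABCC1 (709) and the peroxisomal importer ABCD3 (540.0). ABCE1 followed at 524 per kb and ABCF1 at 451. At the other end of the compared members were ABCA12 at 8.39 per kb and ABCB1 at 8.48. ABCB1, which encodes P-glycoprotein, the best known drug pump, was thus present at a small fraction of the levels of ABCC1, ABCC2 and ABCC3. The lowest compared C member, ABCC6, was nearer to ABCB1, at 16.9 per kb. ABCA12, at 8.39 and 10.98 per kb in the untreated libraries, reached 214 and 284 with nutlin-3a and passed ABCA3 there in the LIMA1 shRNA library (207) but not in the control library (228).

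**Figure D1:**
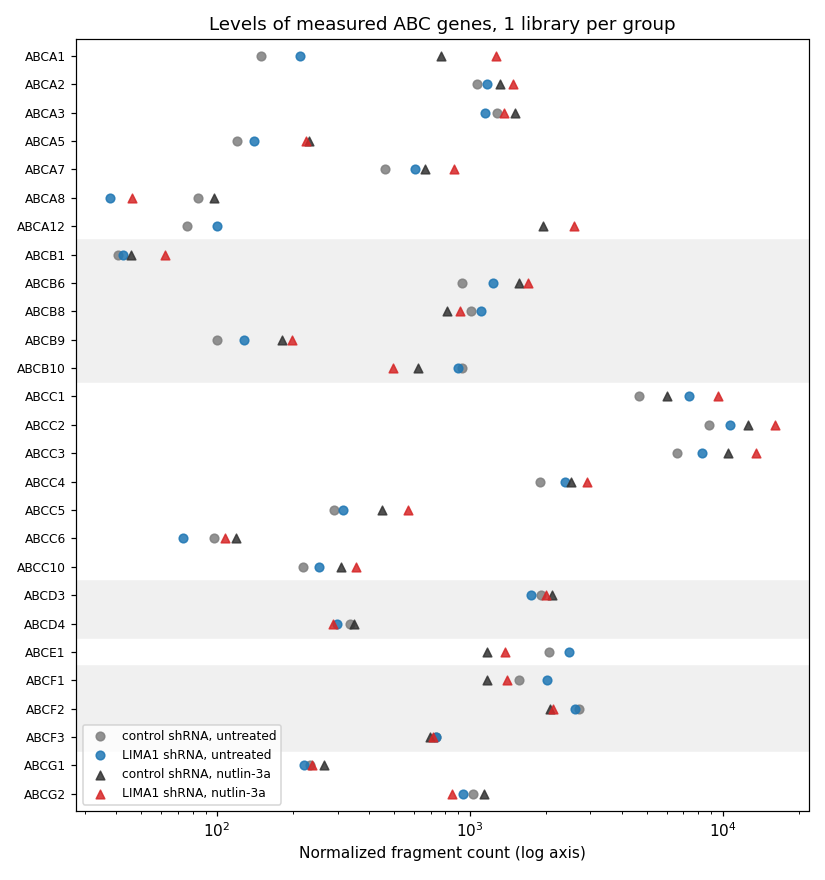
Normalized fragment counts (log axis) of 27 of the 29 compared ABC genes, ordered by subfamily, with 1 point per library: circles untreated, triangles nutlin-3a, in control and LIMA1 shRNA cells. ABCC2 reaches 16152, while ABCB1 stays between 40.5 and 62.2, and ABCA12 goes from 76.4 and 99.9 untreated to 1952 and 2582 with nutlin-3a.

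Members near the level minimum were few. Just inside it, ABCB1 had a mean of 47.7 normalized counts and ABCA8 of 66.2. Just outside, ABCC8, the sulfonylurea receptor of potassium channels, had a mean of 25.1 and ABCG4, a sterol exporter, of 14.6. All 29 compared members had at least 30 normalized counts in each library, so none entered through 1 group alone. Of the 17 members below the minimum, 4 were listed at 0 throughout: ABCC13, ABCD2 and the intestinal and hepatic sterol pair ABCG5 and ABCG8.

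The other members below the minimum had at most 33.2 normalized counts in any library. ABCG4 was at 7.54 and 6.93 untreated (control, then LIMA1 shRNA) and 15.9 and 27.9 with nutlin-3a. ABCB5 was at 15.1 and 7.92 untreated, at 2.98 with nutlin-3a in control cells and at 0 in LIMA1 shRNA cells. Both nutlin-3a libraries were above both untreated ones for ABCG4 and below them for ABCB5. ABCC8 was at 27.3, 13.9, 25.8 and 33.2 and ABCB4, a phospholipid exporter of bile, at 15.1, 16.8, 11.9 and 6.43. ABCA10 lay between 6.43 and 10.9, and ABCA13, ABCA4, ABCA6, ABCA9, ABCB11, ABCC11, ABCC12 and ABCC9 at 11.8 or less in every library.

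Nutlin-3a went with higher levels of 2 lipid exporters, ABCA1 and ABCA12, in both cell lines, and these were the only members called. They are 2 of 29 members in each line, 6.90%, against 5.54% of all 12742 features called higher in control cells and 7.29% in LIMA1 shRNA cells, so the share called was near that of all features. No member was called lower, against 5.64% and 6.08% of all features. No test was made. By sign alone, all 7 compared A members, the 2 called ones included, and all 7 C members lay above 0 in both lines, where 41.4% of all features did. The 4 E and F members lay below 0 in both, where 44.5% of all features did, though ABCF3 was at 0.03 in LIMA1 shRNA cells with upper-quartile scaling.

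ABCA12 carries glucosylceramide into lamellar granules, the lipid store of the skin barrier. It was at 76.4 normalized counts in untreated control cells and 1952 with nutlin-3a, 25.6-fold higher, a difference of 4.66 (4.35 to 5.01). In LIMA1 shRNA cells it was at 99.9 and 2582, 25.8-fold higher, a difference of 4.68 (4.40 to 4.99). Both untreated libraries were low and both treated ones high, and the responses differed by 0.02 between the lines. Of all features, 99.7% had a smaller difference in each line.

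ABCA1 exports cholesterol and phospholipid to apolipoprotein A-I. It was at 149 and 767 normalized counts in control cells, 5.15-fold higher, a difference of 2.36 (2.12 to 2.62). LIMA1 shRNA cells had 214 and 1275, 5.96-fold higher, a difference of 2.57 (2.37 to 2.79). The 4 libraries stood in the same order as for ABCA12, lowest in untreated control cells and highest in nutlin-3a LIMA1 shRNA cells.

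The other members of subfamily A that handle lipid stayed under the size for a call. ABCA5, a lysosomal protein, came nearest, at 119.7 against 230.3 normalized counts in control cells (0.94, 0.63 to 1.27) and 139.5 against 225 in LIMA1 shRNA cells (0.69, 0.38 to 1.01). ABCA7, a phospholipid exporter related to ABCA1, differed by 0.52 and 0.51. ABCA2 of the endolysosome differed by 0.31 and 0.35, and ABCA3 by 0.24 and 0.25, every one of these intervals lying above 0. ABCA3 itself was at 1276, 1152, 1505 and 1366 normalized counts. All 7 compared A members had values above 0 in both lines, with medians of 0.52 and 0.51; ABCA8, at 0.21 and 0.29, had intervals that included 0.

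Every compared C member also lay above 0 in both lines. The medians over these 7 were 0.49 in control cells (range 0.29 to 0.67) and 0.54 in LIMA1 shRNA cells (0.29 to 0.85), against -0.02 in each line over all features. ABCC3 differed by 0.67 (0.63 to 0.71) and 0.72 (0.68 to 0.76), ABCC2 by 0.51 (0.47 to 0.54) and 0.60 (0.56 to 0.63), and ABCC1 by 0.37 (0.31 to 0.42) and 0.38 (0.34 to 0.43). ABCC5, an exporter of cyclic nucleotides, was at 289 and 451 normalized counts in control cells and 316 and 571 in LIMA1 shRNA cells, differences of 0.64 and 0.85. ABCC4, which also exports cyclic nucleotides and prostaglandins, differed by 0.41 and 0.29, and ABCC10 by 0.49 in both lines. ABCC6 differed by 0.29 (-0.10 to 0.69) and 0.54, the second with an interval above 0. It has near-identical pseudogene copies, ABCC6P1 and ABCC6P2, that are counted separately in the files, so its level is uncertain.

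Subfamily B was mixed. ABCB6, a porphyrin transporter, was at 928 against 1569 normalized counts in control cells (0.76, 0.64 to 0.87) and at 1231 against 1699 in LIMA1 shRNA cells (0.46, 0.36 to 0.57). ABCB9, a lysosomal peptide transporter, differed by 0.84 and 0.62, with values that are not whole fragments. In the mitochondrial inner membrane, ABCB10, which supports heme synthesis, was lower with nutlin-3a, at 934 against 625 (-0.58, -0.73 to -0.43) and 897 against 498 (-0.85, -1.01 to -0.68). ABCB8 was at -0.32 and -0.26, with intervals below 0. ABCB1 differed by 0.17 and 0.54, both with intervals that included 0.

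None of the 4 members that act on ribosomes was called. ABCE1, which splits ribosomes after termination, was at 2053 normalized counts untreated and 1173 with nutlin-3a in control cells, a difference of -0.81 (-0.91 to -0.70). In LIMA1 shRNA cells it was at 2473 and 1379, a difference of -0.84 (-0.94 to -0.75). ABCF1, an initiation factor partner, was at 1569 and 1166 (-0.43) and at 2021 and 1397 (-0.53). ABCF2, at 2706 and 2069.7 in control cells and 2599 and 2135 in LIMA1 shRNA cells, differed by -0.39 and -0.28, and ABCF3 by -0.07 and -0.04, the last pair with intervals that included 0.

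Subfamilies D and G held mixed or small differences. ABCD3, the abundant importer of branched and bile acid precursors, was at 1911 and 2105 normalized counts in control cells (0.14) and at 1748 and 2002.5 in LIMA1 shRNA cells (0.20). The difference of ABCD4, which releases cobalamin from lysosomes, was 0.06 and -0.05. ABCG2, the breast cancer resistance protein, was at 1026 and 1137 in control cells (0.15, 0.03 to 0.27). In LIMA1 shRNA cells it was at 938 and 850.1 (-0.14, -0.28 to -0.0045). ABCG1, a partner of ABCA1 in sterol export, differed by 0.19 (-0.06 to 0.45) and 0.10 (-0.17 to 0.38).

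**Figure D2:**
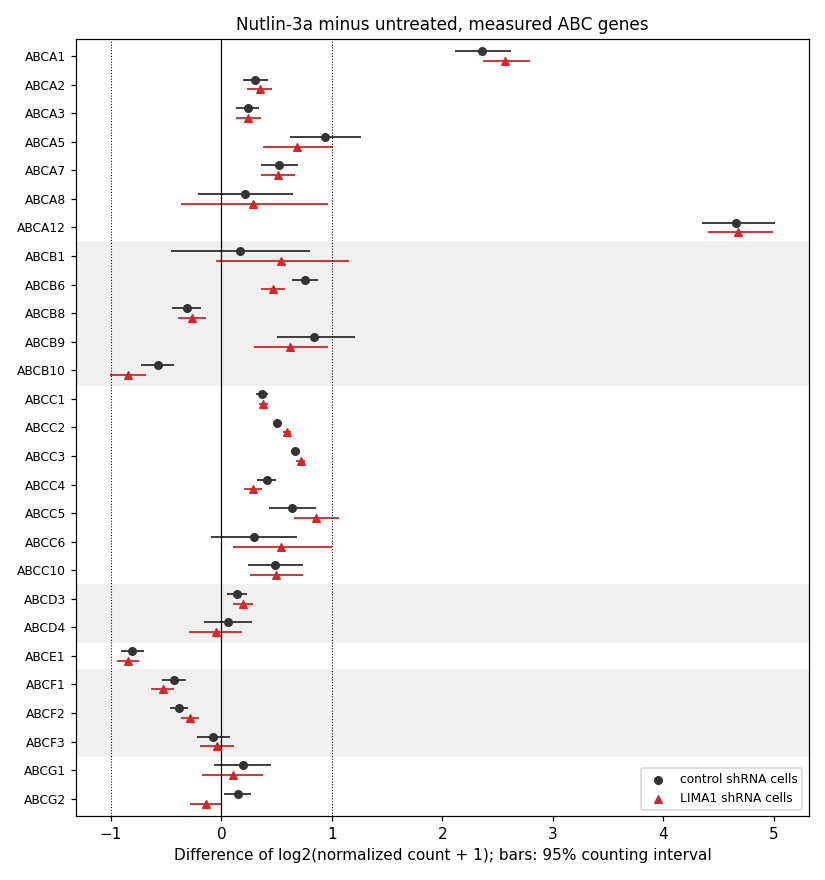
Difference of log2(normalized count + 1) between nutlin-3a and untreated libraries for 27 of the 29 compared ABC genes, in control shRNA cells (circles) and LIMA1 shRNA cells (triangles), with 95% counting intervals as bars and dotted lines at -1 and 1. ABCA12 (4.66 and 4.68) and ABCA1 (2.36 and 2.57) lie beyond 1, every C member lies right of 0, and ABCE1, ABCF1, ABCF2 and ABCF3 lie left of 0.

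Counted over the family, 21 of 29 members lay above 0 in both lines, 72.4%, against 41.4% of all features, and 6 below 0 in both, 20.7%, against 44.5%. Counting intervals lay above 0 in both lines for 16 members, 55.2%, against 26.3% of all features. They lay below 0 for 5, 17.2%, against 30%. These shares are approximate, since values that are not whole fragments, ABCB9 among them, were rounded. Whether an interval leaves out 0 also depends on the level of the gene. At a smaller size of 1.5-fold, 8 members were higher in control cells, 27.6% of them, against 13.3% of all features, and 8 in LIMA1 shRNA cells, against 15.6%. ABCE1 was 1.5-fold lower in control cells (12.8% of all features), and ABCB10 and ABCE1 in LIMA1 shRNA cells (14.6%). In both lines at once, 7 members were 1.5-fold higher (10.9%), ABCA1, ABCA12, ABCA5, ABCB9, ABCC3 and ABCC5 among them, and ABCE1 was lower (10.4%). The family median was 0.29 in control cells (range over members -0.81 to 4.66) and 0.35 in LIMA1 shRNA cells (-0.85 to 4.68). The 2 nutlin-3a contrasts share no library, and their differences over the 29 genes had a Pearson's r of 0.99 and a Spearman's rho of 0.92. Without ABCA1 and ABCA12, r was 0.94, and over all features it was 0.88. Genes are not replicates, so no p is given. Among the members, longer transcripts had higher nutlin-3a differences (Spearman's rho with length 0.64 and 0.63), where all features had 0.03 and 0.04. The family medians were 0.29 and 0.34 with the trend in length over all features removed. That trend was weak, so its removal does not address the relation with length among the members. Length also went with subfamily, with 2.62 to 3.92 kb for the E and F members and 5.82 to 10.49 kb for the compared A members.

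The summed level of subfamily C was 22652 normalized counts in untreated control cells, 29364 in untreated LIMA1 shRNA cells, 32522 with nutlin-3a in control cells and 43336 with nutlin-3a in LIMA1 shRNA cells. For subfamily A the sums were 3245, 3422, 6562 and 7872, where ABCA12 and ABCA1 supplied most of the gap. The sums for E were 2053, 2473, 1173 and 1379 and those for F 5012, 5354, 3935 and 4245. C was thus highest in the library that had both the LIMA1 shRNA and nutlin-3a, and F highest in the untreated LIMA1 shRNA library.

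**Figure D3:**
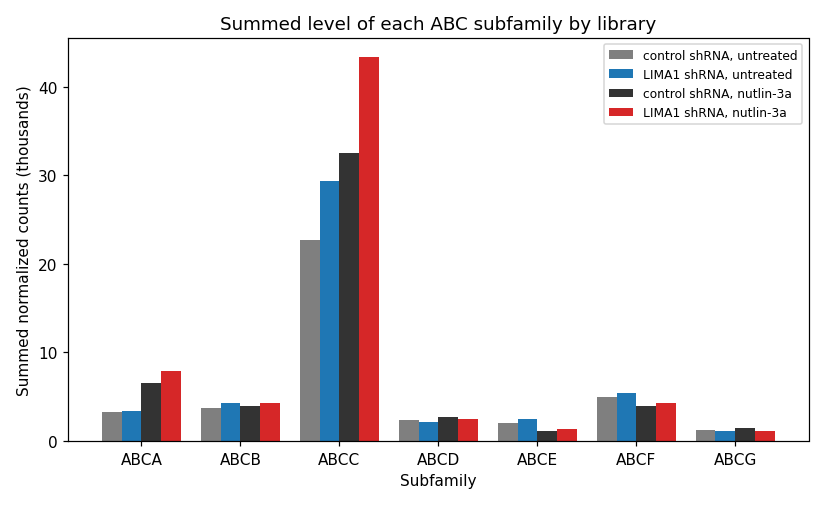
Summed normalized counts of each ABC subfamily in the 4 libraries (bars from 0, 1 library each). ABCC holds the largest sum in each library, and its bars run from 22652 in untreated control cells to 43336 in LIMA1 shRNA cells with nutlin-3a.

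The epithelial markers were mixed between the cell lines. EPCAM and KRT18 were lower with LIMA1 shRNA in both treatments, and KRT8 and KRT7 were higher in both. KRT7 was at 20085 and 22892 untreated (control, then LIMA1 shRNA) and 22455 and 25816 with nutlin-3a. CLDN4 and the adhesion gene CDH1 were lower with LIMA1 shRNA untreated and higher with nutlin-3a. Between the lines a single member was called, ABCA8, a lipid transporter. In untreated cells it had 83.9 normalized counts in the control library and 37.6 in the LIMA1 shRNA library, a difference of -1.14 (-1.75 to -0.59). With nutlin-3a it was at 97.3 and 46.1, a difference of -1.06 (-1.63 to -0.55). Both LIMA1 shRNA libraries were below both control ones. It is 1 of 29 members, 3.45%, against 2.05% of all features called lower untreated and 1.94% with nutlin-3a; 0 members were called higher, against 1.04% and 1.26%. The call did not hold with a pseudocount of 10, which gave 0 lower members in each treatment.

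Of 6 fibroblast marker genes, 1 (COL1A1) reached the level minimum, and COL1A2 was listed at 0 in all libraries. Their summed level was 134.8 and 70.3 in untreated control and LIMA1 shRNA cells and 65.5 and 31.1 with nutlin-3a. This sum was lower in the LIMA1 shRNA library of each treatment, as ABCA8 was; the part of this sum and of EPCAM in the result was not tested.

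Among the abundant exporters, ABCC1 differed most between the lines. With LIMA1 shRNA it was 1.58-fold higher untreated, 7374 against 4674 normalized counts (0.66, 0.61 to 0.71), and 1.59-fold higher with nutlin-3a, 9605 against 6033 (0.67, 0.62 to 0.72). It was the single member past 1.5-fold higher in untreated cells, 3.45% of members against 3.47% of all features, so the share was that of all features. With nutlin-3a ABCA1 joined it, 6.90% of members against 4.37%. ABCC2 differed by 0.27 and 0.36, ABCC3 by 0.33 and 0.38, and ABCC4 by 0.34 and 0.22, each with both intervals above 0. ABCC5 differed by 0.12 (-0.11 to 0.36) and 0.34 (0.16 to 0.53), ABCC10 by 0.20 in both and ABCC6 by -0.40 and -0.15.

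Outside subfamily C, the lipid exporter ABCA1 was higher with LIMA1 shRNA by 0.52 (0.22 to 0.83) untreated and 0.73 (0.60 to 0.86) with nutlin-3a. ABCA7 differed by 0.39 and 0.38, both with intervals above 0. ABCA12 differed by 0.38 (-0.05 to 0.83) and 0.40 (0.32 to 0.49), ABCB6 by 0.41 and 0.11, ABCF1 by 0.36 and 0.26 and ABCE1 by 0.27 and 0.23. On the low side, ABCG2 was at -0.13 untreated and -0.42 (-0.55 to -0.29) with nutlin-3a, ABCD4 at -0.17 and -0.28 and ABCA3 at -0.15 and -0.14. All compared D and G members lay below 0 in both treatments.

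**Figure D4:**
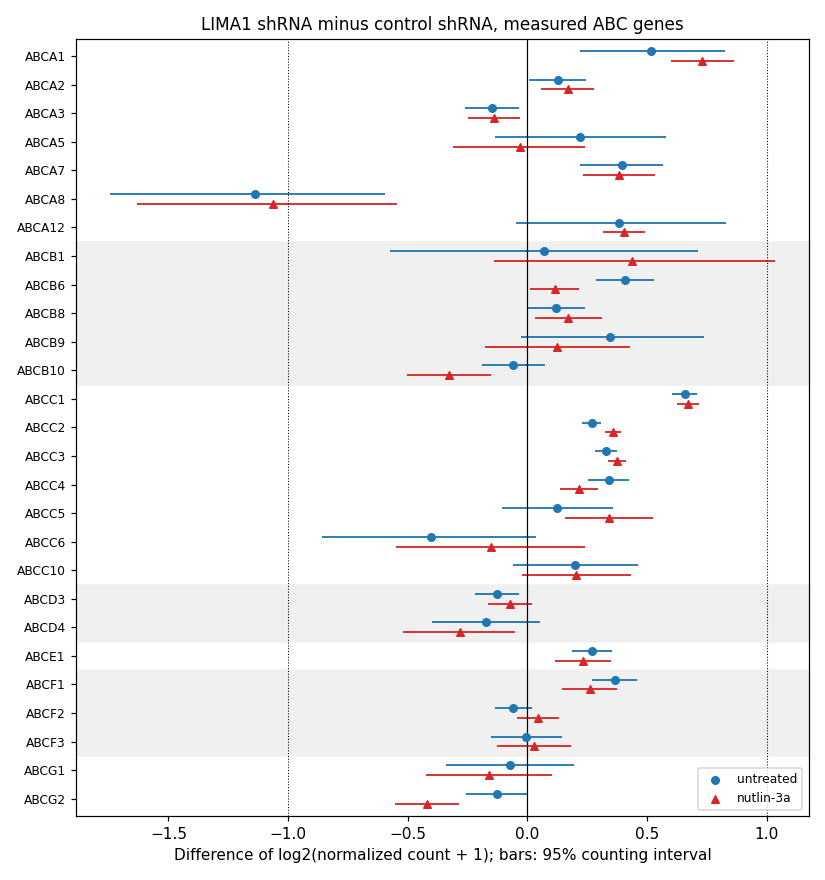
Difference of log2(normalized count + 1) between LIMA1 shRNA and control shRNA libraries for 27 of the 29 compared ABC genes, untreated (circles) and with nutlin-3a (triangles), with 95% counting intervals as bars and dotted lines at -1 and 1. ABCA8 lies below -1 in both, ABCC1 lies at 0.66 and 0.67, and the D and G members lie left of 0.

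In all, 17 of 29 members lay above 0 in both treatments, 58.6%, against 40.6% of all features, and 9 below 0, 31.0%, against 31.6%. The median was 0.13 untreated (range over members -1.14 to 0.66) and 0.17 with nutlin-3a (-1.06 to 0.73), against 0.02 and 0.03 over all features. Across the 29 genes the 2 line contrasts, which share no library, had a Pearson's r of 0.90 (0.84 without ABCA8) and a Spearman's rho of 0.82, against 0.49 and 0.58 over all features. Any lasting difference between the cell lines would enter both, and the hairpin and such a difference cannot be told apart. ABC transcripts were long, with a median of 5.09 kb against 3.50 kb for features with a length, and line differences over all features went with length (Spearman's rho of 0.15 in untreated libraries, 0.17 in treated ones). With the trend in length removed, the family medians were 0.07 and 0.11, and ABCC1 was at 0.60 in each treatment.

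The response to nutlin-3a was close in both lines for most members. Taken as LIMA1 shRNA minus control, the difference of the responses had a family median of 0.01, as over all features, and 0 of 29 members reached 1 or -1, where 1.27% and 0.816% of all features did. The widest gaps were at ABCB1 (0.37), ABCB6 (-0.29), ABCG2 (-0.29) and ABCB10 (-0.27). ABCB1 rests on 43 to 58 fragments per library. This contrast shares all its libraries with the preceding ones.

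Genes that work beside the ABC proteins were read from lists chosen with earlier results known. Over all features, 5.54% in control and 7.29% in LIMA1 shRNA cells were called higher with nutlin-3a. The shares called lower were 5.64% and 6.08%, and the median was -0.02 in each line. The lists are small, and their counts were not tested against these shares. Among family members with other names, TAP1, the antigen peptide transporter, was higher by 1.62 and 1.88 with nutlin-3a (with values that are not whole fragments), and its partner TAP2 was at -0.47 and -0.63. Of 14 compared LXR and sterol efflux genes, 1 was higher in each line and 0 lower: the cholesterol esterifying enzyme LCAT, at 15.2 and 17.8 normalized counts untreated and 58.6 and 58.1 with nutlin-3a, also not whole fragments. Its mean passed the level minimum only through the nutlin-3a libraries, so this count carries no weight. NPC2, which binds cholesterol in lysosomes, differed by 0.54 and 0.84 and the lipoprotein receptor SCARB1 by 0.53 and 0.48. The list median was 0.26 and 0.19.

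Of 14 NRF2 and drug conjugation genes, 1 was higher in control cells (5.54% of all features), the sulfotransferase SULT1A1 (1.01). In LIMA1 shRNA cells SULT1A1 was at 0.88, and 0 of these genes were called higher (7.29% of all features). GCLC, the rate-limiting enzyme of glutathione synthesis, was at -0.52 and -0.93 with nutlin-3a, and this list's medians were 0.17 and 0.05. Of 18 peroxisomal genes, the membrane protein gene PXMP2 was called lower in control cells (5.64% of all features). PXMP2 was at -1.02 there and at -0.75 in LIMA1 shRNA cells, and catalase, CAT, was at 0.87 and 0.71. Of 19 heme and iron-sulfur genes, the cluster scaffold ISCU was higher, at 918 and 3152 normalized counts in control cells (1.78) and 874 and 3317 in LIMA1 shRNA cells (1.92). The glutaredoxin GLRX5 was at -0.56 and -0.41, and the list medians were -0.03 and 0.08.

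Of 15 ribosome recycling and initiation genes 0 were called, with medians of -0.33 and -0.36; EIF3J, which works with ABCE1 in recycling, was at -0.51 and -0.59. Of 11 surfactant and lamellar body genes only LPCAT1 and CEBPA were compared, LPCAT1, a surfactant phospholipid enzyme, at 0.21 and 0.20 and the transcription factor gene CEBPA at 0.13 and -0.18. Of 9 glucosylceramide and barrier lipid genes 0 were called in control cells and 2 higher in LIMA1 shRNA cells (7.29% of all features). They were the sphingomyelinase SMPD1 (0.99 and 1.04) and the ceramide synthase CERS5 (0.72 and 1.07). KCNJ11, the channel partner of ABCC8, was higher by 1.19 and 1.33. Between the lines 0 genes of these lists were called in either treatment. Of all features, 1.04% untreated and 1.26% with nutlin-3a were called higher, and 2.05% and 1.94% lower.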

How the data were processed

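Sample titles gave the groups; they write si, and the protocols shRNA. Per the submitters' processing notes, hg19, bcl2fastq 1.8.3, Bowtie2 2.0.12 and Cuffnorm 2.2.1 were used, with roles and order unstated. For the annotation, no name is given in these sources. Each deposited file holds a normalized signal. Most of its values, not all, read as fragments over a size factor. Of the low values, 85.5% to 86.3% lay within 0.1 of a whole multiple of the step of their library (0.943 to 1.07). Under 95%, no count test was run. Of the 29 compared members 28 were whole in all libraries. A pseudocount of 1 and a minimum mean of 30 were used. The 95% counting intervals (Clopper-Pearson, exact) leave out the pseudocount. GENCODE 29 gave transcript lengths for 90.1% of compared features.

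Members and lists were chosen with earlier results of these data known. By the rule for named genes, all 4 values are given for members called in a contrast and for the highest of each subfamily, other members appear by value or range, and each list gives up to 4 genes with the largest mean nutlin-3a differences. Alternatives were other pseudocounts, filters, scalings and sizes, genes with whole values only and, chosen after seeing the data, removal of the median difference in 20 bins of transcript length. The values of a few genes are not reported here. Calls and intervals were tested on simulated data. Python 3.11.15, numpy 2.4.6, pandas 2.3.3, scipy 1.17.1 and matplotlib 3.10.9 were used.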

Additional observations from a re-analysis of the deposited data

Results flagged for a closer look

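A few members had differences of opposite sign in the compared pairs of libraries. The opposition was not tested, since each group has 1 library. With nutlin-3a, ABCG2 was at 0.15 in control and -0.14 in LIMA1 shRNA cells, and ABCD4 at 0.06 and -0.0524. Between the lines, ABCA5 was at 0.22 untreated and -0.0327 with nutlin-3a, ABCF2 at -0.06 and 0.0451 and ABCF3 at -0.0038 and 0.0287. For ABCG2 both counting intervals left out 0, though the one in LIMA1 shRNA cells ended close to it (-0.28 to -0.0045). For the other 4 genes both intervals included 0. The opposite signs were lost for ABCF2 with equal totals (-0.0042 with nutlin-3a), for ABCF3 with equal totals and upper-quartile scaling (-0.02 and -0.0090) and with median-of-ratios scaling (0.0046 untreated), and for ABCD4 with upper-quartile scaling and with the length trend removed (0.02 and 0.0089 in LIMA1 shRNA cells). ABCA5 and ABCG2 kept them under every alternative tried, with ABCG2 in LIMA1 shRNA cells between -0.16 and -0.05.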

How the results depend on the processing

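ABCA1 and ABCA12 were called higher with nutlin-3a in both lines under every alternative tried. With a pseudocount of 30 ABCA12 was at 4.22 and 4.33. Counts of members moved as follows. At 1.5-fold, 8 were higher and 1 lower with nutlin-3a in control cells, 8 and 2 in LIMA1 shRNA cells, and 1 (untreated) and 2 (nutlin-3a) were higher with LIMA1 shRNA. Without a filter on low values 42 members entered, with 5 higher and 1 lower in control cells, 11 and 2 in LIMA1 shRNA cells, 2 lower between the lines untreated, 3 higher and 2 lower with nutlin-3a, and 5 larger and 1 smaller responses. With a mean of at least 10, 4 were higher and 1 lower in LIMA1 shRNA cells, and 1 response was larger. The members added by these 2 looser filters had at most 33.2 normalized counts in any library. Shares over all features are not given for these filters, so their counts carry no weight for the family. ABCA8 was not called, leaving 0 lower members in either treatment, with pseudocounts of 10 and 30, a mean of at least 150 and log2 sizes of 1.5 and 2. Family medians for nutlin-3a stayed between 0.23 and 0.35 in control and between 0.29 and 0.50 in LIMA1 shRNA cells, and those between lines between 0.03 and 0.22 untreated and between 0.11 and 0.21 with nutlin-3a. The median difference of responses turned from 0.01 to -0.0039 with median-of-ratios scaling. No scaling moved the median of all features by more than 0.08. Depth limits ABCA8 and ABCB1 most.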
